A study of Mus musculus with 6 samples.

Results

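The genes that build and run the mitotic spindle were followed in RAW264.7 cells, 57 genes out of the 49315 in the deposited count table. They were chosen by name for their function, with earlier results of these data known, and fall into 6 classes. These are chromosome structure and condensin (8 genes), mitotic kinases and chromosomal passengers (7), checkpoint, cohesion and anaphase control (12), kinetochore (12), mitotic kinesins (10), and spindle assembly and cytokinesis (8). RAW264.7 cells are mouse macrophage-like cells that divide in culture. The wild-type cells received 4 μg/mL of SKI-II, a compound best known for inhibiting sphingosine kinases, or the same volume of the solvent DMSO, and RNA was taken after 24 h. Each condition had 3 RNA-seq libraries of poly(A)-selected RNA, all from 1 cell line, and neither condition carried an engineered allele. The question was which transcripts of the macrophages differed in level with the compound.

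In mitosis, condensin compacts the duplicated chromosomes, kinetochores tie each centromere to spindle microtubules, and the spindle checkpoint holds back the anaphase-promoting complex until the attachments are made. Separase then cuts cohesin, kinesins slide, bundle and shorten the microtubules, and a contractile ring divides the cell. Transcripts of many of these genes are known to rise late in the cell cycle, through promoters that hold a CHR element and CCAAT boxes, bound by the MuvB core with B-Myb and FoxM1 and by the factor NF-Y.

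Every one of the 57 transcripts was lower in the SKI-II libraries. The median log2 fold change was -2.05, or 24.2% of the DMSO level, against a median of 0.004 over the 12274 genes with enough reads for a test. The values ran from -2.76 for Aurkb, the kinase of the chromosomal passenger complex, to -0.61 for Bub3, a checkpoint protein. All 57 genes passed the filter on low counts, and all 57 were lower at an adjusted p below 0.05 by the quasi-likelihood test of edgeR with adjustment after Benjamini and Hochberg. Over all tested genes, 19.7% were lower by that rule. With a log2 fold change below -1 required as well, 55 members were called, where 7.44% of tested genes were, and at a log2 fold change of -2 or less 32 members were called against 1.85%. In all 57 members every SKI-II library was below every DMSO library, which held for 25.5% of tested genes. Against the null value of a log2 fold change of 1 in size, 49 members passed, and the 8 that did not were Kif18a, Cdc20, Sgo1, Cenpe, Cenpk, Plk4, Mad2l1 and Bub3. In bulk RNA, fewer cells in mitosis and less of each transcript per mitotic cell cannot be told apart.

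**Figure D1:**
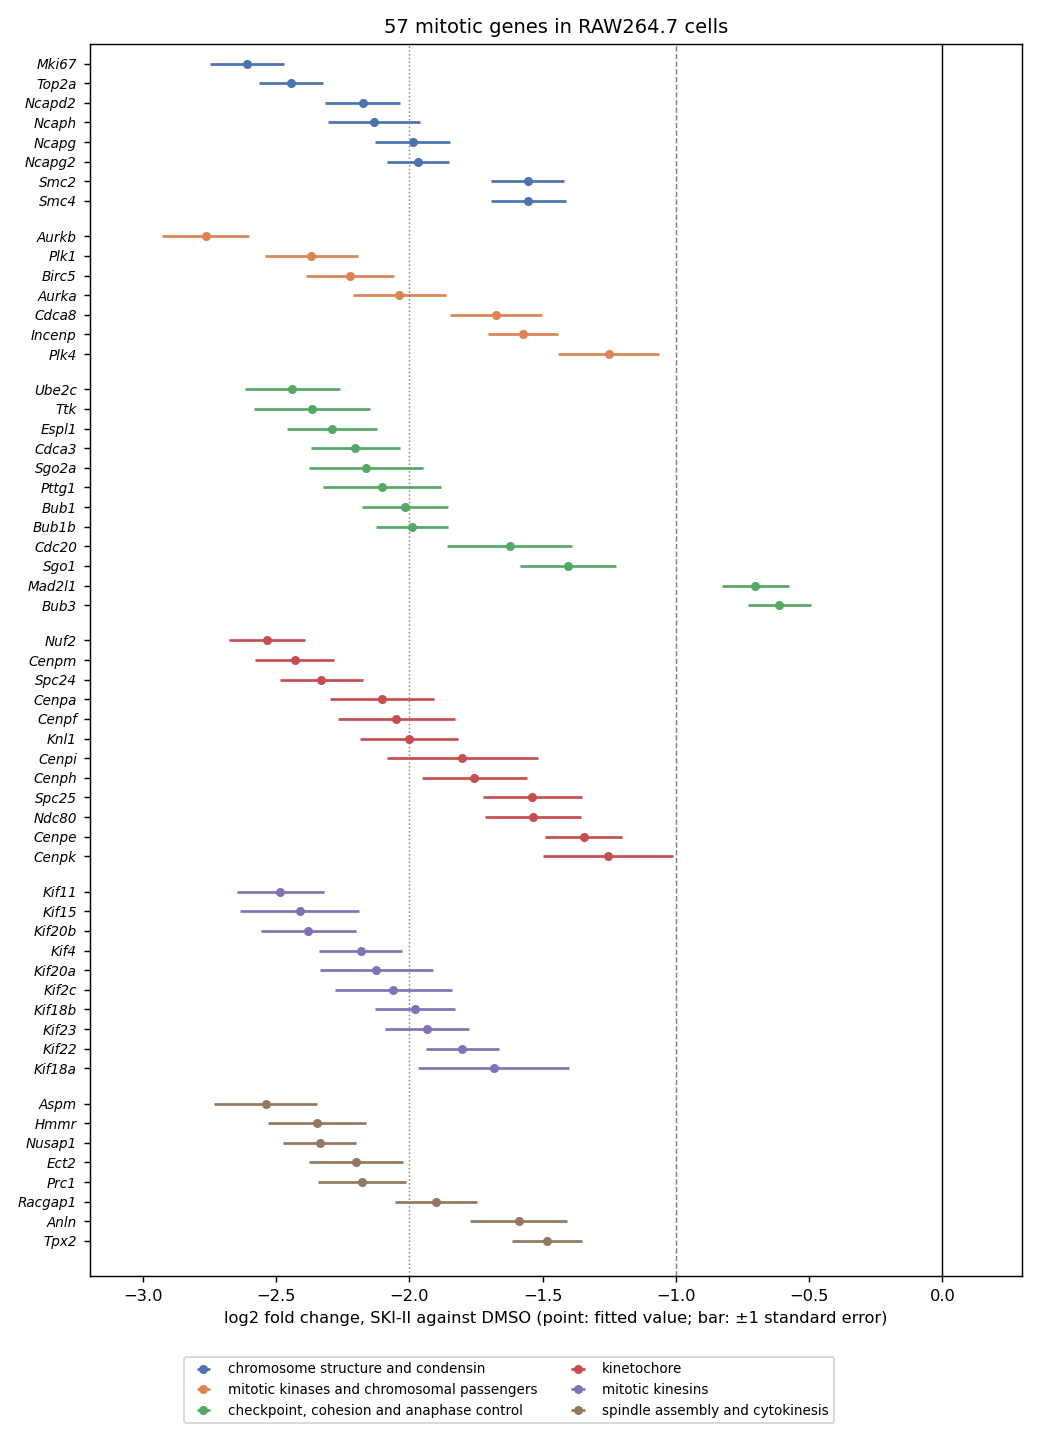
Log2 fold change of each of the 57 genes, SKI-II against DMSO, by class. Points are the fitted values, bars are 1 standard error either way (n = 3 libraries per condition), and the dashed and dotted lines mark -1 and -2. All points lie below 0, and only Bub3 and Mad2l1 lie above -1.

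The libraries held 12495957 to 20050677 counts each, and the members took 0.749%, 0.652% and 0.535% of the counts in DMSO replicates 1, 2 and 3 and 0.146%, 0.171% and 0.177% in SKI-II replicates 1, 2 and 3. Single members had between 36 and 13594 reads in a library. All 10 macrophage markers were detected. Their summed level was 142308 to 207327 normalized counts in DMSO and 91143 to 129132 with SKI-II, with Lyz2, Itgam and Adgre1 lower, Fcgr1 and Cd14 higher, and Csf1r, Cd68, Spi1, Ptprc and Mertk past no threshold. Markers of other cell types, apart from Lck, were at or near 0. The summed fibroblast markers reached at most 21.2 normalized counts (Lum at 0), the epithelial markers 0.815 (Epcam, Krt8, Krt18, Cdh1 and Cldn4 at 0) and the B cell markers 5.60 (Ms4a1 and Ebf1 at 0). The T cell list summed to 98.6 to 115.9 in DMSO and 181.3 to 240.3 with SKI-II, almost wholly from Lck (log2 fold change 0.97, adjusted p 0.00412 by edgeR), with Cd3g at 0. The part of these marker changes in the results was not tested.

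The promoters are shown first because this class of promoter is known for the CHR element. Whether the promoters had a part in the lower levels was not tested. RefSeq promoters of build GRCm38.p6, 250 bases before to 50 after each gene start, were matched by symbol for 51 of the 57 genes. Those of Aurkb, Incenp, Kif20a, Smc4, Spc24 and Tpx2 were not among them. The 5 below were chosen to show a CHR-type hexamer close to CCAAT boxes, in genes of 3 classes, with Bub3 as the member with the smallest change. Bub3 has 2 starts in RefSeq, of which 1 is shown. They are written 5′ to 3′ on the strand of the gene, 120 bases before to 30 after the start, and capitals mark motifs on either strand. The motifs are the CHR-type hexamer TTTGAA, its variant TTCGAA, and the CCAAT box. On the other strand the hexamer reads TTCAAA and the box reads ATTGG.
Cdc20 (chr4:118437314-118437463, minus strand): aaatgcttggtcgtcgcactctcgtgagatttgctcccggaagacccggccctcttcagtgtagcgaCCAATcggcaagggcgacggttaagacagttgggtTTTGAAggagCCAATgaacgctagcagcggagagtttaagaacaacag
Kif18b (chr11:102925095-102925244, minus strand): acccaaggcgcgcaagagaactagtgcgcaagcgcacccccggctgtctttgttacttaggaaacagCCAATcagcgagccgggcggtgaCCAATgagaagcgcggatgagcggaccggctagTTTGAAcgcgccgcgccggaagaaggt
Hmmr (chr11:40733408-40733557, minus strand): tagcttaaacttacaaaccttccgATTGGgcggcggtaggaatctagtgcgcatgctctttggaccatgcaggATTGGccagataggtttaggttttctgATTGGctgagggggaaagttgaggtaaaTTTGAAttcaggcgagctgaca
Racgap1 (chr15:99651627-99651776, minus strand): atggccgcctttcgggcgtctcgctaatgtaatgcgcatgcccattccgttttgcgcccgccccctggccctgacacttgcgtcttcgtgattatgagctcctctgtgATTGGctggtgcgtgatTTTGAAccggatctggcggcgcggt
Bub3 (chr7:131560250-131560399, plus strand): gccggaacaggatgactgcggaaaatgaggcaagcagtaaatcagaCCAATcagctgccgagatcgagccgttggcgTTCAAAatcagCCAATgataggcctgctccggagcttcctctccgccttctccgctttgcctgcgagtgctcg

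Counted from the gene start, the hexamer began 18 bases before it in Cdc20, which encodes the activator of the anaphase-promoting complex, and 43 bases before it in Bub3. It began 3 bases after the first transcribed base in Kif18b, a microtubule-depolymerizing kinesin, 8 after it in Hmmr, a spindle-associated receptor for hyaluronan, and 5 after it in Racgap1, the GTPase-activating subunit of centralspindlin. Each of these promoters held 1 such hexamer in the stretch shown, with 3 CCAAT boxes in Hmmr, 2 in Cdc20, Kif18b and Bub3, and 1 in Racgap1. A match of letters is a description, not a site shown to be bound.

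Over the whole 300-base window, TTTGAA on either strand was present in 35 of the 51 members (68.6%), against 14.5% of tested genes with a promoter and 20.2% of all genes with one. TTCGAA, which reads the same on both strands, was in 5 members (9.80%), against 2.57% and 1.80%. At least 1 CCAAT box was in 36 members (70.6%), against 43.2% and 41.1%, and 2 or more were in 43.1% of members against 17.2% and 13.3%. A CHR-type hexamer, meaning either TTTGAA or TTCGAA, stood with a CCAAT box in 1 promoter in 31 members (60.8%), against 7.10% and 8.61%. The TATA-type hexamer TATAAA was in 3 members (5.88%), against 8.48% and 15.7%. A promoter could count for more than 1 motif, and matches of different motifs may share letters at their ends.

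The CHR-type matches of the members lay close to the start. Of the 38 members with a match, 34 had one that began within 50 bases of it on either side. In the first 25 transcribed bases, 15 of the 57 promoters of members (26.3%) held a match, against 1.02% of the promoters of tested genes, and in the next 25 bases 17.5% did against 0.817%. The 38 members with a CHR-type hexamer had a median log2 fold change of -2.05 (range -2.61 to -0.61), and the 13 without one had a median of -1.80 (range -2.53 to -0.70). The ranges overlap almost wholly. Nuf2, a subunit of the NDC80 complex, had the lowest fold change of those without, and Mad2l1, a checkpoint protein, the highest.

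**Figure D2:**
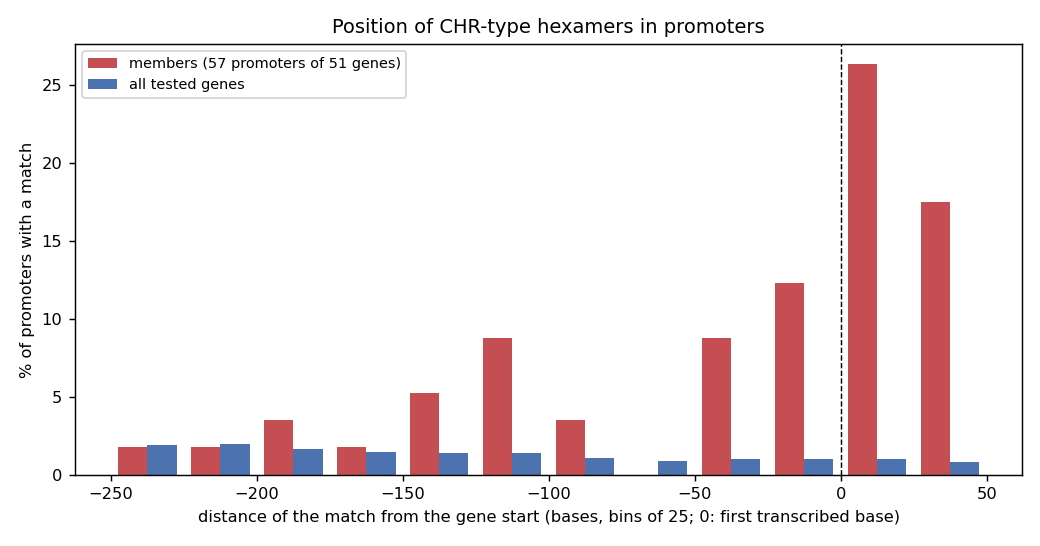
Share of promoters with a CHR-type hexamer (TTTGAA or TTCGAA, either strand) that begins in each bin of 25 bases, by distance from the gene start in bases. Red bars are the 57 promoters of 51 members, blue bars those of all tested genes. The red bars are highest, at 26.3% and 17.5%, in the 50 bases after the start, where the blue bars are at 1.02% and 0.817%.

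Genes that are no members were also sorted by the motifs from 100 bases before to 50 after the start. Only the members were left out. Genes of the further mitotic lists described below, many of them lower with SKI-II, could therefore be among the genes sorted. Whether the shares hold without the genes of those lists was not tested. With both a CHR-type hexamer and a CCAAT box there, 49 of 176 tested genes (27.8%) were called lower at a log2 fold change below -1 and 13 (7.39%) higher. With neither, 332 of 6074 (5.47%) were called lower and 501 (8.25%) higher. The hexamer without the box gave 12.9% called lower and the box without the hexamer 8.18%, and all 9144 such genes together gave 6.97%.

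All 8 transcripts of the chromosome structure class were called at a log2 fold change below -1, and together they kept 20.95% of their DMSO level. Mki67 and Top2a made up 62.7% of the DMSO sum and kept 17.2%, and the other 6 genes together kept 27.3%. Normalized counts, here and below, are counts scaled to an effective library of 16060713 reads, and the values of a condition are given for replicates 1, 2 and 3 in that order. Mki67, which encodes the Ki-67 protein of the chromosome surface, is on chr7:135689784-135716361 (GRCm38, minus strand, ENSMUSG00000031004). It had 13204, 12338 and 10255 normalized counts in DMSO and 1855, 1925 and 2086 with SKI-II, or -2.61 ± 0.14 as log2 fold change (SE, n = 3 per condition). Top2a, the topoisomerase that disentangles sister DNA, had 8205, 7508 and 6864 in DMSO and 1399, 1347 and 1399.7 with SKI-II (log2 fold change -2.45 ± 0.12). Both genes were at most 20.4% of their lowest DMSO library in the highest SKI-II library, so the conditions were far apart.

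The subunits of condensin differed in the size of their fitted change. Smc2, an ATPase subunit of both condensin complexes, had 2604, 2308 and 1955 normalized counts in DMSO and 732, 837 and 766 with SKI-II (log2 fold change -1.56 ± 0.14). Its partner Smc4 had 1729, 1948 and 2091 in DMSO and 613, 589 and 762 with SKI-II (-1.55 ± 0.14). The conditions did not overlap for either gene, though DMSO replicate 1 was the highest library for Smc2 and the lowest DMSO library for Smc4. The other condensin subunits had lower fold changes, at -2.18 for Ncapd2, -2.13 for Ncaph and -1.99 for Ncapg, which belong to condensin I, and -1.97 for Ncapg2 of condensin II. Within a library, which removes any scaling between libraries, the ratio of Ncapd2 to Smc2 reads was 1.32, 1.32 and 1.45 in DMSO and 0.784, 0.863 and 0.997 with SKI-II. The ratio of Smc4 to Smc2 reads was 0.664, 0.844 and 1.07 in DMSO and 0.838, 0.704 and 0.995 with SKI-II, with the conditions overlapping.

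Among the mitotic kinases and the chromosomal passengers, all 7 transcripts were called at a log2 fold change below -1, and their sum fell to 26.2% of DMSO. Aurkb, on chr11:69045647-69051664 (plus strand, ENSMUSG00000020897), had 2309.7, 2000.1 and 1917 normalized counts in DMSO and 253, 283 and 377 with SKI-II, with -2.76 ± 0.16 as log2 fold change, the lowest of the 57. Plk1, the kinase that acts in spindle assembly and mitotic entry, had 2242, 1702 and 1556 in DMSO and 291, 401 and 372 with SKI-II (-2.37 ± 0.17). Birc5, which encodes survivin, had 1058, 982 and 928 in DMSO and 163, 235 and 236 with SKI-II (-2.22 ± 0.16). All 3 genes stood at least 3.88-fold higher in their lowest DMSO library than in their highest SKI-II library. Aurka, the kinase of the spindle poles, fell by 2.04 on the log2 scale.

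The other passengers and the centriole kinase had smaller fitted changes. Cdca8, which encodes borealin, and Incenp, the scaffold of the passenger complex, had log2 fold changes of -1.68 ± 0.17 and -1.58 ± 0.13. Plk4, the kinase that starts centriole duplication, had 542, 569.8 and 372 normalized counts in DMSO and 200.3, 227 and 195 with SKI-II (-1.25 ± 0.19). DMSO replicate 3 was the lowest DMSO library for Plk4, but still 1.64-fold above the highest SKI-II library. For each read of Aurkb, there were 2.04, 2.08 and 1.82 reads of Incenp across the DMSO libraries and 5.48, 4.98 and 3.57 across those with SKI-II. The highest adjusted p of the class was 0.000783, that of Plk4, by edgeR's quasi-likelihood test.

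**Figure D3:**
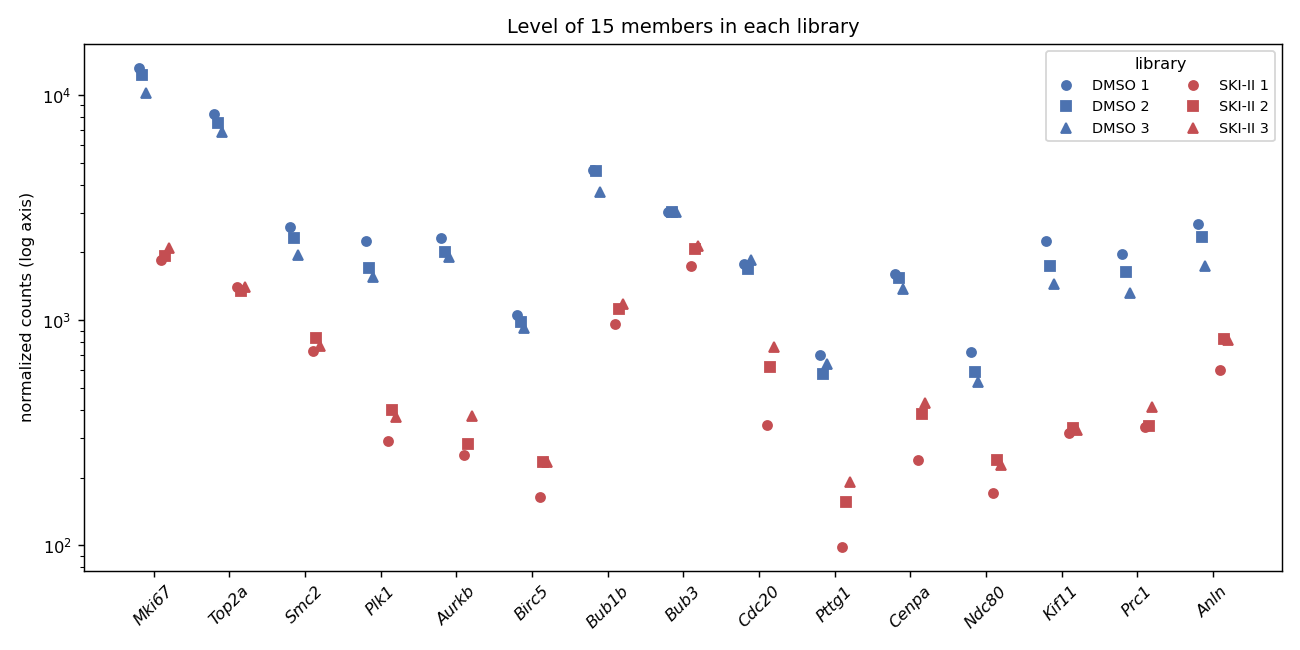
Normalized counts, on a log axis, of 15 members in each of the 6 libraries. Blue symbols are the DMSO libraries and red symbols the SKI-II libraries, with the shape for the replicate. The red symbols lie below the blue ones for every gene, with the smallest gap at Bub3 (3017 in the lowest DMSO library and 2136 in the highest SKI-II library).

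The checkpoint, cohesion and anaphase class had the widest range of fold changes, and its sum kept the most, 32.4% of DMSO. All 12 of its transcripts were lower at an adjusted p below 0.05, and 10 were called at a log2 fold change below -1. Ube2c, the ubiquitin-conjugating enzyme of the anaphase-promoting complex, had 1989, 1807 and 1870.5 normalized counts in DMSO and 247, 381 and 413 with SKI-II (-2.44 ± 0.18). Ttk, the kinase also called Mps1, had 725, 618 and 499 in DMSO and 83.9, 134 and 137 with SKI-II (-2.37 ± 0.22). SKI-II replicate 1 was the lowest library for both, and the conditions did not overlap. Espl1, which encodes separase, and Cdca3, a trigger of mitotic entry, had log2 fold changes of -2.29 and -2.20. Bub1, a checkpoint kinase, and Sgo2a, a shugoshin that guards centromeric cohesin, had -2.02 and -2.16.

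Bub3 and Mad2l1 were the 2 members of all 57 with a log2 fold change above -1. Bub3, which binds Bub1 and BubR1 at the kinetochore, is on chr7:131560222-131571895 (plus strand, ENSMUSG00000066979) and had 3030.5, 3017 and 3035 normalized counts in DMSO and 1744, 2062 and 2136 with SKI-II. Its log2 fold change was -0.61 ± 0.12, with an adjusted p of 0.00294. Mad2l1, which encodes the Cdc20 inhibitor Mad2, had 1102, 963 and 1036 in DMSO and 575, 637 and 692 with SKI-II (-0.70 ± 0.13, adjusted p 0.00213). Their SKI-II libraries still lay below all DMSO libraries, by 1.41- and 1.39-fold at the closest pair. Bub1b, which encodes BubR1 of the same checkpoint complex, had 4662, 4602 and 3725 in DMSO and 967, 1125 and 1178 with SKI-II (-1.99 ± 0.13). For each read of Bub1b there were 0.650, 0.656 and 0.815 reads of Bub3 across the DMSO libraries and 1.80, 1.83 and 1.81 across those with SKI-II, a difference of 1.37 on the log2 scale. Per kilobase of exon, Bub1b stood at 1013 normalized counts and Bub3 at 432 in DMSO, and at 255 and 283 with SKI-II. These levels use the summed exon length of the annotation, not the length of the expressed transcript, so the order of the 2 genes is uncertain.

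Cdc20 and Pttg1 varied the most among the SKI-II libraries in this class. Cdc20 had 1779, 1684 and 1856 normalized counts in DMSO and 342, 618 and 760.2 with SKI-II (-1.62 ± 0.24). Pttg1, which encodes the separase inhibitor securin, had 701, 579 and 642 in DMSO and 98.5, 156 and 191 with SKI-II (-2.10 ± 0.22). In both, SKI-II replicate 1 was the lowest library and SKI-II replicate 3 the highest of its condition, and the conditions stayed apart. Sgo1, the other shugoshin, fell by 1.40 on the log2 scale.

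The kinetochore class, the proteins between centromere and microtubule, had 12 transcripts, all called at a log2 fold change below -1, and their sum fell to 27.5% of DMSO. Nuf2 (chr1:169497934-169531464, minus strand) had 1347, 1231 and 1184 normalized counts in DMSO and 181, 230.0 and 237 with SKI-II (-2.53 ± 0.14). Cenpm, of the constitutive centromere network, had 573, 519 and 534 in DMSO and 97.3, 101 and 103 with SKI-II (-2.43 ± 0.15). They stood 4.995- and 5.06-fold higher in the lowest DMSO library than in the highest SKI-II library. Cenpa, the histone H3 variant that marks centromeres, had 1606, 1548 and 1377 in DMSO and 239.5, 384 and 429 with SKI-II (-2.10 ± 0.20), with SKI-II replicate 1 the lowest.

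The 4 subunits of the NDC80 complex, which binds the microtubule, had fitted values in pairs. Nuf2 and Spc24 had log2 fold changes of -2.53 ± 0.14 and -2.33 ± 0.16, and Ndc80 and Spc25 of -1.54 ± 0.18 and -1.54 ± 0.19. Ndc80 had 724, 591 and 533 normalized counts in DMSO and 171, 238 and 226 with SKI-II. The libraries did not overlap, and DMSO replicate 1 was the highest. The ratio of Nuf2 to Ndc80 reads was 1.86, 2.08 and 2.22 in DMSO and 1.06, 0.964 and 1.05 with SKI-II. For Spc25 to Ndc80 it was 0.848, 0.876 and 0.812 in DMSO and 1.02, 0.884 and 0.676 with SKI-II, so the SKI-II libraries spanned the DMSO ones. Of the remaining members, Cenpf and Knl1, which sit at the outer kinetochore, had log2 fold changes of -2.05 and -2.001. Cenpi and Cenph of the constitutive network had -1.80 and -1.76, and the kinesin-like motor Cenpe had -1.35. Cenpk, another protein of that network, had the fewest reads of the 57 genes, with 106, 99.8 and 87.1 normalized counts in DMSO and 40.3, 44.9 and 37.5 with SKI-II (-1.25 ± 0.24), and the highest adjusted p of all members, 0.00316 by edgeR's quasi-likelihood test.

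All 10 mitotic kinesins were called at a log2 fold change below -1, and their sum fell to 23.1% of DMSO. Kif11, also called Eg5, which pushes the spindle poles apart, is on chr19:37376403-37421859 (plus strand) and had 2239.8, 1742 and 1446 normalized counts in DMSO and 314, 331 and 324 with SKI-II (-2.48 ± 0.16). Kif15, which can act beside Kif11, had 1175, 1018 and 614 in DMSO and 160.0, 182 and 184 with SKI-II (-2.41 ± 0.22). The SKI-II libraries lay close together for both, and the spread was among the DMSO libraries. Kif18a, which dampens chromosome movements at the metaphase plate, had 416, 580.0 and 548 in DMSO and 88.4, 167 and 221 with SKI-II (-1.68 ± 0.28). With Smc4, it was 1 of the 2 members with DMSO replicate 1 as the lowest DMSO library, and its standard error was the largest of the class. Kif20b, Kif4, Kif20a and Kif2c lay between, at -2.38, -2.18, -2.12 and -2.06. Kif20b acts in cytokinesis, Kif4 and Kif20a act at the central spindle, and Kif2c depolymerizes microtubules at centromeres. Kif18b had -1.98, the centralspindlin motor Kif23 -1.93 and the chromosome-arm motor Kif22 -1.80.

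Spindle assembly and cytokinesis genes had the lowest class median, -2.19, and all 8 were called at a log2 fold change below -1. Their sum fell to 27.0% of DMSO. Aspm, a spindle-pole protein, had 1807, 1472 and 1181 normalized counts in DMSO and 201, 259.5 and 304 with SKI-II (-2.54 ± 0.19). Hmmr had 1653, 1392 and 1344 in DMSO and 207, 319.7 and 334 with SKI-II (-2.35 ± 0.18). Prc1, which bundles the microtubules of the central spindle, had 1969, 1632 and 1324 in DMSO and 335, 339 and 414 with SKI-II (-2.18 ± 0.17). In these 3 genes DMSO replicate 1 was the highest library and SKI-II replicate 1 the lowest. Nusap1, a microtubule-binding protein, had a log2 fold change of -2.34, and Ect2, the exchange factor that activates RhoA for the contractile ring, one of -2.20.

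Anln and Tpx2 had the smallest fitted changes of this class. Anln, the ring scaffold anillin, had 2684, 2339 and 1736 normalized counts in DMSO and 603, 824 and 816 with SKI-II (-1.59 ± 0.18). Tpx2, the activator of Aurora A on the spindle, had 3984, 3452 and 3247 in DMSO and 1127, 1310.1 and 1383 with SKI-II (-1.48 ± 0.13). The conditions did not overlap for either. Racgap1, at -1.90 ± 0.15, fell with its centralspindlin partner Kif23. Their read ratio, Kif23 to Racgap1, was 0.530, 0.450 and 0.388 in DMSO and 0.533, 0.446 and 0.393 with SKI-II.

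**Figure D4:**
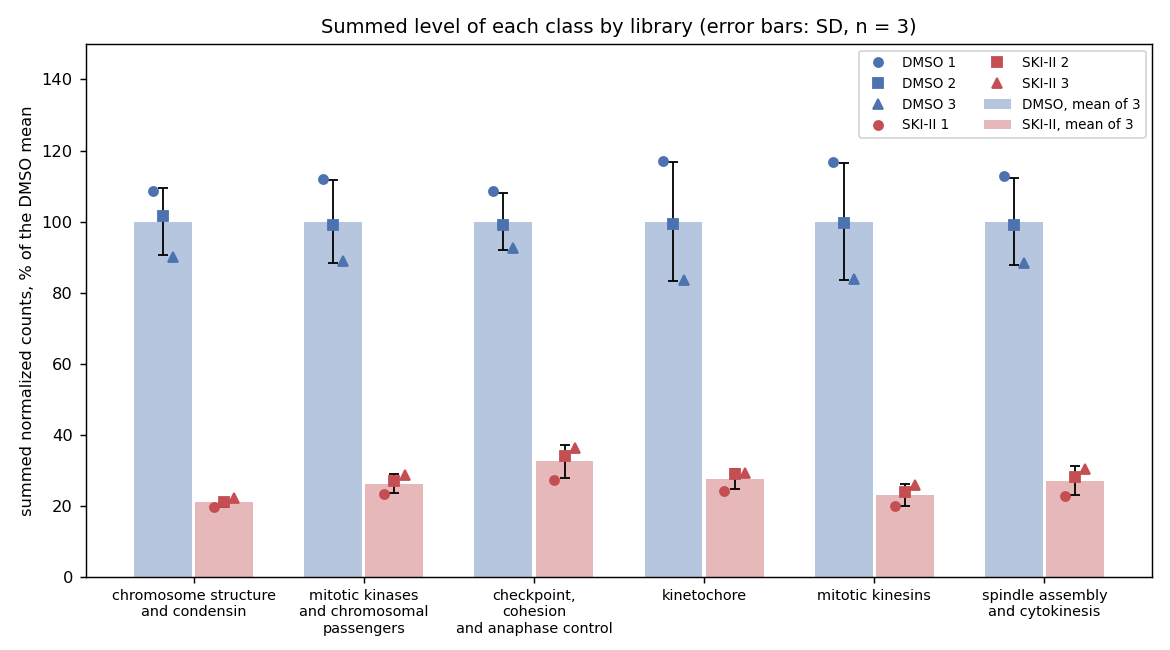
Summed normalized counts of each class as a percent of its DMSO mean. Bars are means of 3 libraries, error bars the SD, and symbols the single libraries. The SKI-II means lie between 20.95% for chromosome structure and condensin and 32.4% for checkpoint, cohesion and anaphase control.

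Summed over all 57 genes, the normalized counts were 114942, 102886 and 91280 in DMSO replicates 1, 2 and 3, a mean of 103036 ± 11832 (SD, n = 3), and 23152, 27259 and 28958 in SKI-II replicates 1, 2 and 3, a mean of 26456 ± 2985. SKI-II thus stood at 25.7% of DMSO, and at 25.8% and 25.5% with RLE scaling and with library size alone. The members moved together among libraries of a condition. DMSO replicate 1 was the highest DMSO library for 50 of the 57 genes and DMSO replicate 3 the lowest for 45. SKI-II replicate 1 was the lowest SKI-II library for 43, and SKI-II replicate 3 the highest for 37. The median member stood at 111%, 99.3% and 89.3% of its DMSO mean in DMSO replicates 1, 2 and 3 and at 20.1%, 24.6% and 27.2% in SKI-II replicates 1, 2 and 3. The gap between the conditions was thus larger than the spread within them.

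The size of the change hardly followed the level of the transcript. Over the 57 genes, the log2 fold change and the log2 DMSO level had Pearson's r of -0.17 and Spearman's rho of -0.07, as a description across genes that share their libraries. Of the 57, 46 lay within 0.5 of the median on the log2 scale. Per kilobase of exon, the highest DMSO levels were those of Mki67 (1186 normalized counts), Bub1b (1013), Incenp (951) and Cdc20 (949). The order of genes here rests on the summed exon length of the annotation. In SKI-II the highest were Incenp (319), Cdc20 (307), Bub3 (283) and Tpx2 (272), with Mki67 at 194. Cenpk had the lowest level per kilobase in both conditions, 18.7 and 7.81.

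In all, 18 within-library read ratios between subunits of 1 complex were compared, 13 of them among the members, with pairs chosen after the values were seen. By the exact two-sided permutation test, 15 of the 18 had a p of 0.1, the smallest that 3 libraries against 3 can give, and an adjusted p of 0.12, so none could pass a threshold of 0.05. The 15 are those whose conditions did not overlap. For Smc4 to Smc2, Spc25 to Ndc80 and Kif23 to Racgap1 the difference was -0.01, 0.01 and 0.01 on the log2 scale, each with an exact permutation p of 0.9. A ratio of reads is not a ratio of molecules, since the lengths differ, and is read only between conditions. For members whose exons overlap another gene on the opposite strand, the count is uncertain, because the strandedness of the counting is not given. The overlap covered 35.0% of the exon bases of Sgo2a, 29.3% of Kif20a, 22.8% of Ube2c (with Tnnc2, which had 2 reads in all libraries) and at most 15.1% of any other member.

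The wider machinery of mitosis was described with 7 further gene lists of 125 genes, 122 of them tested. Other kinetochore and centromere genes had 21 of 27 lower at an adjusted p below 0.05 and 0 higher by edgeR, with a median log2 fold change of -1.44. At an unadjusted p below 0.05, 22 were lower and 1 higher, and by adjusted p DESeq2 called 1 higher and limma-voom 0. The lowest was Oip5, a loader of Cenpa, at -2.34 ± 0.31, and the least of those that passed was Mad1l1, the Mad2 anchor, at -0.53 ± 0.16. Of other spindle and cytokinesis genes, 20 of 23 were lower and 0 higher by edgeR at adjusted and unadjusted p alike, and 0 higher by DESeq2 and limma-voom, with a median of -1.86, and the lowest was Depdc1a at -2.58 ± 0.21 and the least of those that passed the augmin subunit Haus1 at -0.61 ± 0.14. These medians are nearer to the members' -2.05 than to the 0.004 of all tested genes. Of all tested genes, 19.7% were lower and 18.4% higher by the same rule.

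Lists of broader function had medians nearer to 0. Their counts at an adjusted p below 0.05 stand beside 19.7% lower and 18.4% higher over all tested genes. Of 15 genes of the anaphase-promoting complex, 14 subunits and the co-activator Fzr1, 6 were lower and 1 higher, with a median of -0.24, from Anapc15 at -0.92 ± 0.18 to Anapc16 at 0.68 ± 0.15. Fzr1, at -0.86 ± 0.13, was among the 6. None of them was called at a log2 fold change above 1 or below -1, where 8.28% of tested genes were called higher and 7.44% lower. Of 13 cohesin genes, 9 were lower, with a median of -0.50, and the lowest was Esco2, the acetyltransferase that sets cohesion in S phase, at -2.66 ± 0.25. The least of those that passed was Stag1, a subunit that binds the cohesin ring, at -0.44 ± 0.16. The list of further kinesins with their light chains and an accessory subunit, among them carriers of vesicles, the ciliary Kif7 and Kif9, and the microtubule depolymerase Kif2a, which also acts at spindle poles (-0.31 ± 0.13, adjusted p 0.0906 by edgeR), had 1 of 20 tested genes lower, Kif16b at -0.43 ± 0.12, and 4 higher. The highest of these was Kif9 at 1.80 ± 0.35, and the median was 0.17 against the -2.09 of the mitotic kinesins. These small counts moved with single libraries, to 0 lower without DMSO replicate 2 or SKI-II replicate 2, 2 lower without DMSO replicate 3 and 2 higher without SKI-II replicate 1. Of 17 tubulin and gamma-tubulin ring genes, 5 were lower and 2 higher, from Tubb5, a major beta-tubulin, at -2.03 ± 0.13 to Tuba8 at 1.06 ± 0.33. With no filter or with the replicate block 8 were lower, while 4 were higher without DMSO replicate 1 and 1 was higher when DMSO replicate 2 or 3 or SKI-II replicate 1 or 2 was left out. Tubulin genes are much alike in sequence, so that reads may be split among them.

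**Figure D5:**
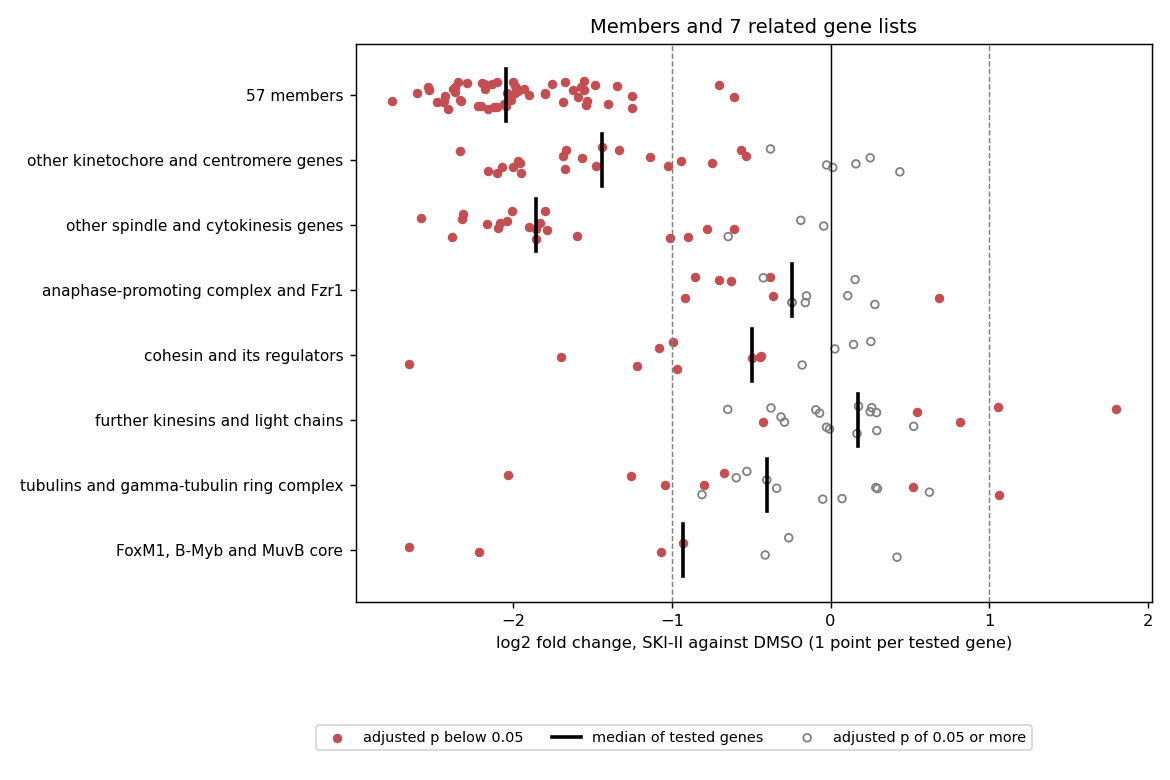
Log2 fold change, SKI-II against DMSO, of the 57 members and of the tested genes of 7 related lists, 1 point per gene. Filled points passed an adjusted p of 0.05 and black bars are medians. The medians run from -2.05 for the members to 0.17 for the further kinesins and light chains.

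The regulators of the CHR element were given in full, 7 genes of which 4 were lower at an adjusted p below 0.05, where 19.7% of tested genes were. Mybl2, which encodes B-Myb, had 2220.4, 2189.7 and 1573 normalized counts in DMSO and 274, 315 and 355 with SKI-II (-2.66 ± 0.17). Foxm1 had 2907, 2839 and 2468 in DMSO and 538, 609 and 622 with SKI-II (-2.21 ± 0.12). Both fold changes lie within the range of the members, with no overlap between conditions. Of the MuvB core, Lin9 had -1.07 ± 0.17 and Lin54, its DNA-binding subunit, -0.93 ± 0.13, both lower at an adjusted p below 0.05. Lin52 at -0.41 ± 0.23 (adjusted p 0.195), Rbbp4 at -0.26 ± 0.11 (adjusted p 0.0778) and Lin37 at 0.42 ± 0.20 (adjusted p 0.119) did not pass edgeR's quasi-likelihood test. The part of these regulators in the levels of the members was not tested.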

How the data were processed

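The authors sequenced 3 DMSO and 3 SKI-II libraries of RAW264.7 RNA after enrichment on oligo(dT) beads. The study's methods state independent repeats for its experiments in general, but the labels do not tie the libraries to separate cultures, so p-values measure the spread between these libraries, which may be technical. Per the submitters' processing notes, the reads were handled with Trimmomatic 0.36, STAR 2.5.2b, featureCounts of Subread 1.5.2 and DESeq2. The deposited table used here holds the authors' raw counts per Ensembl gene and library. Build, annotation release and strandedness were not given in the sources used here. All columns were used. Names and positions came from GENCODE M21 (GRCm38), which matched 49056 of 49315 identifiers. Identifiers without a name held 0.0102% of counts.

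Genes were filtered with filterByExpr (minimum count 10, minimum total 15), which left 12274 genes with at least 99.9% of the counts of each library. Counts were scaled by TMM (factors 0.942 to 1.05) and tested by condition only with edgeR 4.0.16 (quasi-likelihood F test, R 4.3.3), with Benjamini-Hochberg adjustment over all genes tested. The common coefficient of biological variation was 17.5%. Standard errors were taken from the negative binomial weights and the moderated quasi-likelihood dispersion. Thresholds were an adjusted p of 0.05 and log2 fold changes of 1 and 2. No pair of libraries within a condition agreed within sampling noise (chi-square per degree of freedom 15.4 to 58.1), so each counted as 1 replicate. Alternatives were DESeq2 1.42.0, voom of limma 3.58.1, RLE scaling, library size alone, no filter, a minimum of 10 counts in every library, leaving out each library, the replicate number as a block, testing against a null log2 fold change of 1, and a shorter promoter window. Counts were simulated for this comparison over 12099 genes, with 200 changed by a log2 fold change of 2. Of these, edgeR recovered 93.5% with 9 false calls, edgeR with the block 91.5% with 7, DESeq2 92.5% with 25 and limma-voom 93.5% with 8. In the data more genes passed an adjusted p of 0.05, 2413 lower and 2256 higher, over many fold sizes. The simulated rates need not hold there.

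The members, the 7 further lists and the marker lists were chosen with earlier results of these data known. Values in every library are given for the 2 lowest members and the highest member of each class by log2 fold change, for members not called at a log2 fold change below -1, and for 15 fixed members (Mki67, Top2a, Plk1, Aurkb, Birc5, Bub1b, Bub3, Cdc20, Pttg1, Cenpa, Ndc80, Kif11, Prc1, Anln and Smc2). In each further list the called genes with the lowest and the highest fold change are named, and all 7 genes of the FoxM1, B-Myb and MuvB list. Fzr1, Kif2a and Kif7 were named after their values were seen. Ratios within complexes were tested with an exact permutation test in scipy 1.17.1. Levels per kilobase use the summed exon length of the annotation. Promoter sequences are from RefSeq. Figures were drawn with matplotlib 3.10.9.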

Additional observations from a re-analysis of the deposited data

How the results depend on the processing

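All 57 members stayed lower at an adjusted p below 0.05 under each alternative tool, scaling, filter and left-out library, with 0.0173 as the highest adjusted p of any member, that of Bub3 without DMSO replicate 2, and 55 stayed past a log2 fold change of -1 in the same settings. Tested against a log2 fold change of 1 in size, 49 passed. With 1 library left out, the median of the members lay between -2.24 (without SKI-II replicate 3) and -1.92 (without SKI-II replicate 1), and the number at -2 or less between 24 (without SKI-II replicate 1) and 37 (without DMSO replicate 3). No other kinetochore gene was higher in the main test, but 1, Zwint (log2 fold change 0.44, adjusted p 0.0582 by edgeR), named after its values were seen, was higher under DESeq2, with no filter, with the replicate block, and without SKI-II replicate 3, a range of 0 to 1 with 1 library left out. Leaving out 1 library gave 0 to 2 further kinesins or light chains lower, 2 to 4 higher, and 1 to 4 tubulin genes higher. Of the tubulin list, 8 genes were lower with no filter and 8 with the replicate block. In the shorter promoter window, 100 bases before to 50 after the start, most shares were smaller. TTTGAA was in 64.7% of members against 5.8% of tested genes, and TTCGAA in 5.88% against 1.04%. A CCAAT box was in 60.8% against 29.8%, and a CHR-type hexamer with a CCAAT box in 49% against 2.19%. No member promoter held TATAAA there (0%), against 3.74% of tested genes.

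Deviations from the condition means correlated at 0.246, 0.00994 and 0.458 for libraries that share number 1, 2 and 3. Between differing numbers the values ran from -0.462 to 0.296, and not every library correlated best with its own number. With 3 libraries per condition, these values cannot settle whether the replicate numbers pair the libraries. With the replicate block, 57 members were lower, 55 past -1 and 31 at -2 or less, with a median of -2.07. Depth did not limit the calls of members, but with 3 libraries per condition the exact test of ratios could not pass 0.05. Cell numbers and mitotic index were not analysed here.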

Other observations

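Subunits of kinetochore complexes outside the 57 genes also differed in their changes, and these were chosen after their values were seen. Of the MIS12 complex, which joins the centromere to NDC80, Dsn1, Nsl1 and Pmf1 had log2 fold changes of -1.97 ± 0.17, -2.10 ± 0.19 and -1.96 ± 0.19 (SE, n = 3 per condition). Mis12 itself had 751, 644 and 645 normalized counts in DMSO replicates 1, 2 and 3 and 609.8, 664 and 731 in SKI-II replicates 1, 2 and 3, overlapping between conditions (-0.02 ± 0.13, adjusted p 0.903 by edgeR's quasi-likelihood test). Of the complex that brings dynein to kinetochores, Kntc1 and Zwilch had log2 fold changes of -2.07 and -2.16. The remaining partner Zw10, which also serves vesicle traffic, had 1634, 1884 and 1516 in DMSO and 1785, 2146 and 1691 with SKI-II (0.16 ± 0.14, adjusted p 0.391). The 5 read ratios of these subunits to Mis12 or Zw10 differed between conditions by -2.32 to -1.94 on the log2 scale, with no overlap (exact permutation p = 0.1 each, the smallest possible, and 0.12 adjusted over 18 ratios).

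Other complexes were likewise chosen after their values were seen. Of the genes that load Cenpa, 3 that were lower at an adjusted p below 0.05 were Oip5 at -2.34 ± 0.31, Mis18a at -1.95 ± 0.22 and the chaperone Hjurp at -1.14 ± 0.21. Of the 8 subunits of augmin, which branches spindle microtubules, 6 were lower at an adjusted p below 0.05, where 19.7% of tested genes were. These 6 ran from Haus5 at -2.04 ± 0.31 to Haus1 at -0.61 ± 0.14. Haus2 (-0.19 ± 0.21, adjusted p 0.513) and Haus3 (-0.04 ± 0.20, adjusted p 0.885) did not pass. Of the paralogous cohesin acetyltransferases, Esco2 had 330.2, 263 and 191 normalized counts in DMSO and 40.3, 44.9 and 39.1 with SKI-II, and Esco1 had 329, 350.0 and 322 in DMSO and 394, 421 and 379 with SKI-II (0.25 ± 0.14, adjusted p 0.176 by edgeR's quasi-likelihood test).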
